A study of Mus musculus with 4 samples.

Results

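The voltage-gated sodium and calcium channel genes of the embryonic mouse cortex were followed across 4 RNA-seq libraries. Members were the protein-coding genes whose names begin with Scn, a number and a or b, or with Cacna, Cacnb or Cacng. The deposited tables listed 38 such genes among 22619, of which 37 were in both tables and 33 passed the filter on low counts, among 16269 genes tested. RNA came from the cortex of C57BL/6 mouse embryos at E16.5. Wild type was represented by 2 libraries (replicates 1 and 4), and 2 more (cKO replicates 1 and 2) were labelled as lacking H2A.Z.2, a histone variant encoded by H2afv, through conditional deletion. The labels used here name neither the driver of the deletion, nor the deleted exons, nor whether libraries came from separate embryos. The spread that p-values of the comparison between groups measure here is therefore that among the libraries, and may be technical.

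Between 16625181 and 17940659 reads per library were assigned to genes. All 10 cortical markers examined, among them Emx1 and Tbr1, were listed, with a summed level of 3316 and 3115 CPM in the wild types (CPM, reads per gene scaled to library size) and 2898 and 4210 CPM under the cKO label. H2afv itself gave 136 CPM and 222 CPM in the wild types (replicate 1, then 4), and 128 CPM and 127 CPM under the cKO label (replicate 1, then 2). The libraries labelled cKO thus lay close to wild type replicate 1, and the log2 fold change of H2afv of -0.49 (SE 0.23) became -0.09 without wild type replicate 4. Marker levels set wild type replicate 4 apart. Its 10 cell cycle markers summed to 1360 CPM, against 583 to 677 CPM elsewhere, and its 12 postmitotic neuron markers summed to 6295 CPM, against 7856 to 8619 CPM elsewhere. Diencephalon markers summed to 75.5 CPM there, against 16.1 to 37.8 CPM elsewhere. The globin gene Hbb-y was at 72.4 CPM, against 0.503 to 2.02 CPM elsewhere, while the erythroid markers together summed lowest there. Most log2 fold changes are therefore also given below for the fit without wild type replicate 4.

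Voltage-gated sodium channels open on depolarisation and carry the rising phase of the action potential. Each has a pore-forming alpha subunit (genes ending in a) and beta subunits (genes ending in b), which are single-pass membrane proteins that shape gating and surface delivery and also act in cell adhesion. Voltage-gated calcium channels let in calcium that drives transmitter release, neurite growth and gene expression. Their pore is an alpha-1 subunit, and cytoplasmic beta subunits (Cacnb genes) and extracellular alpha-2-delta subunits (Cacna2d genes) carry it to the membrane. Most Cacng products of the brain are known less as calcium channel subunits than as TARPs, the auxiliary subunits that traffic and gate AMPA-type glutamate receptors. In immature neurons, before mature firing begins, Scn3a is the alpha subunit best known for its embryonic expression, whereas Scn1a and Scn8a are known for their later rise.

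The start regions of 5 members are shown because these members carry the patterns described below. Scn1a and Cacna2d1 split the libraries labelled cKO in one direction and Cacna2d2 in the other, Scn2a was among the members lowest in wild type replicate 4, and Cacnb3 was the most abundant calcium channel beta subunit gene. The sequences are RefSeq's on GRCm38.p6, written 5′ to 3′, each with 250 bases before an annotated transcription start and 50 bases after it. Scn2a and Cacnb3 have more than 1 annotated start, and the one shown lies inside the gene span of the deposited tables. Capitals mark the GC box GGGCGG and the TATA box TATAAA on either strand, where neighbouring copies can share bases.
Scn1a, chr2:66440788-66441087, minus strand: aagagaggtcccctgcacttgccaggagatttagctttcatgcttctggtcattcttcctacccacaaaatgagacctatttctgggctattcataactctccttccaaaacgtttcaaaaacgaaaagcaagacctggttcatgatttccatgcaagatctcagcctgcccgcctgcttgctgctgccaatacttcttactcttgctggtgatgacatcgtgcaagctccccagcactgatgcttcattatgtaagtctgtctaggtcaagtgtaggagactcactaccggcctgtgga
Scn2a, chr2:65668436-65668735, plus strand: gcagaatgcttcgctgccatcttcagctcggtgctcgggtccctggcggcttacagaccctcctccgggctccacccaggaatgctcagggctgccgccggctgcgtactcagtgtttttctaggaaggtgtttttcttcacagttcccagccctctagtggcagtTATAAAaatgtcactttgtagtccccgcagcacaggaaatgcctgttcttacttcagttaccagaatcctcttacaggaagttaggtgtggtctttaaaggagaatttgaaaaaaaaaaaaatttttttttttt
Cacna2d1, chr5:15934441-15934740, plus strand: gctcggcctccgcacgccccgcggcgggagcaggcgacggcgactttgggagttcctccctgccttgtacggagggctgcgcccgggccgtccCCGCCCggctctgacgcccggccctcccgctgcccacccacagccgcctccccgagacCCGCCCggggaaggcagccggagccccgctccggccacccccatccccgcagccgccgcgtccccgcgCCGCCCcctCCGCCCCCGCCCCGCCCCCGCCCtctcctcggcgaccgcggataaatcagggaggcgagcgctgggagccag
Cacna2d2, chr9:107399630-107399929, plus strand: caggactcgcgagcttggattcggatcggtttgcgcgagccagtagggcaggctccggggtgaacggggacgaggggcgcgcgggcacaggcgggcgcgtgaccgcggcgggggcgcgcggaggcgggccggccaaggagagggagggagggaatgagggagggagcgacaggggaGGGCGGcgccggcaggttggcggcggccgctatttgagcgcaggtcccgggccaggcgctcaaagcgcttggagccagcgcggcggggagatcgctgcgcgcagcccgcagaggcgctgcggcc
Cacnb3, chr15:98634517-98634816, plus strand: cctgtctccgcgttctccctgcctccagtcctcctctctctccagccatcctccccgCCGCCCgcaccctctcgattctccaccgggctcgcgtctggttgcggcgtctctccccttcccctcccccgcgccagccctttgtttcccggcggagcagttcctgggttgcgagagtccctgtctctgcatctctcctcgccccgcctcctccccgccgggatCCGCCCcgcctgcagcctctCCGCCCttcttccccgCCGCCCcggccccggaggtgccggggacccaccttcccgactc

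The windows differ in composition. Those of Cacna2d1 and Cacna2d2 hold 42 and 43 CpG dinucleotides, that of Cacnb3 holds 29, and those of Scn2a and Scn1a hold 9 and 5, where the median of all 32851 RefSeq windows was 7. Cacna2d1 and Scn1a, which went together across the libraries, thus lie at opposite ends of this range. Composition depends on the start shown. The windows of Cacnb3 and Scn2a not shown hold 7 and 3 CpG dinucleotides, and that of Scn2a lacks a TATA box. Over the 39 windows of the 28 members with an entry, 38.5% held a GC box, against 35.7% of all windows, and 5.13% held a TATA box, against 13.6%. The CCAAT box (CCAAT) was in 25.6% against 37.4%, and the cAMP response element TGACGTCA was in none of the 39, against 1.79%. All were searched on both strands, and a missing match says only that these letters are not in the window.

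Levels between genes are compared as CPM per kilobase of exon, averaged over the 4 libraries, with the exons of all annotated isoforms merged. Among sodium channel alpha subunits Scn8a was highest (6.37 CPM per kilobase), followed by Scn3a (4.77), Scn2a (2.95) and Scn1a (1.38). Scn9a was at 0.518 CPM per kilobase, and Scn10a and Scn11a, best known from peripheral sensory neurons, were at 0.174 and 0.0998. The beta subunit Scn3b, at 27.5 CPM per kilobase, exceeded every alpha subunit, whereas Scn2b was at 2.93 and Scn4b at 0.0379.

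Of the calcium channel pores, the low-threshold T-type gene Cacna1h was highest at 29.1 CPM per kilobase. Cacna1g, also T-type, was at 9.08, the N-type gene Cacna1b at 8.24, the R-type gene Cacna1e at 5.49, the L-type genes Cacna1c and Cacna1d at 4.41 and 3.01, the P/Q-type gene Cacna1a at 4.37 and the T-type gene Cacna1i at 2.55 CPM per kilobase. With the length of the longest protein-coding transcript, an alternative chosen after seeing the data, Cacna1e (9.28) came above Cacna1b (8.41), and Cacna1c was at 7.10. Cacna1s and Cacna1f, known from skeletal muscle and retina, had 4 to 10 reads per library. Some auxiliary subunits exceeded every pore. Cacnb3 reached 108 CPM per kilobase and Cacnb1 32.3, against 2.45 for Cacnb4 and 0.380 for Cacnb2. Cacna2d2 was at 11.8, Cacna2d1 at 6.32 and Cacna2d3 at 2.42 CPM per kilobase. By the longest transcript the levels were 10.6 for Cacna2d1, 5.71 for Cacna2d3 and 1.27 for Cacnb2. A pair of Cacng genes stood far above the others of that family, Cacng7 at 109 and Cacng4 at 95.7 CPM per kilobase. Cacng8 was at 13.2, Cacng2 at 8.41, Cacng3 at 5.66, Cacng5 at 2.70 and Cacng1, the gamma subunit of skeletal muscle, at 1.18 CPM per kilobase.

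**Figure D1:**
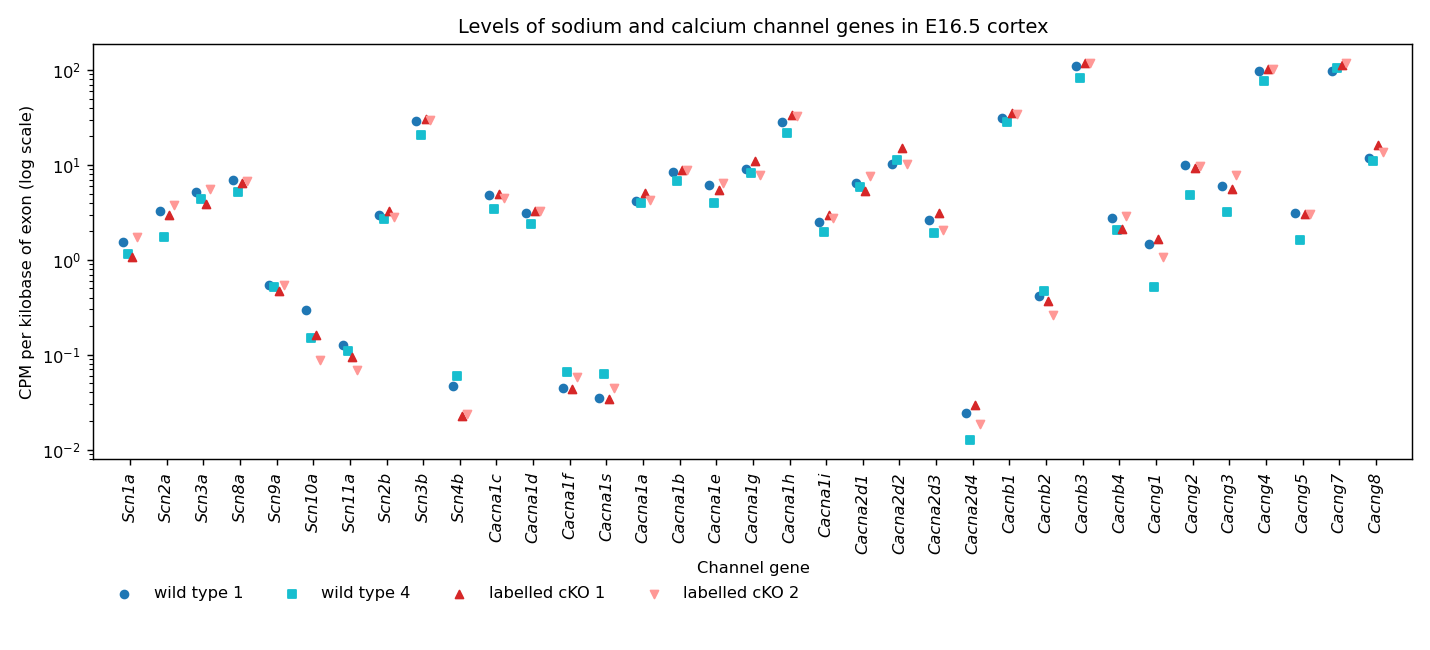
Level of 35 of the 37 channel genes listed in both tables, in CPM per kilobase of exon on a log axis, with 1 symbol per library. Cacng7, Cacnb3 and Cacng4 average 95.7 to 109 CPM per kilobase, and the differences between genes far exceed those between libraries.

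Within-family shares put the same levels on a scale that library size does not touch. T-type genes made up 59.8% and 60.6% of all alpha-1 CPM per kilobase in the wild types, and 63.5% and 61.3% under the cKO label. The N-type share was 12.7% and 12.9% against 11.8% and 12.5%, and the L-type share 12% and 11.3% against 10.9% and 11.1%. In these 3 classes both libraries labelled cKO lay on one side of both wild types, by at most a few percentage points. The remaining classes overlapped. The P/Q-type share was 6.21% and 7.64% in the wild types against 6.72% and 6.02% under the cKO label. The R-type share was 9.27% and 7.61% against 7.12% and 9.06%. Shares are parts of a whole, so the 3 separations are not independent results. Such separation was also common among all genes tested, at rates given below. In the sodium alpha family Scn8a held 35.3% to 39.8% and Scn3a 23.6% to 30.2%. The share of Scn2a was 17.2% in wild type replicate 1, 12.1% in wild type replicate 4, 18.1% in cKO replicate 1 and 19.8% in cKO replicate 2. Cacnb3 took 72.7% to 76.4% of beta subunit CPM per kilobase, and Cacng4 and Cacng7 together most of that of the TARPs, at 38.2% to 43.2% and 43.2% to 51.6%.

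**Figure D2:**
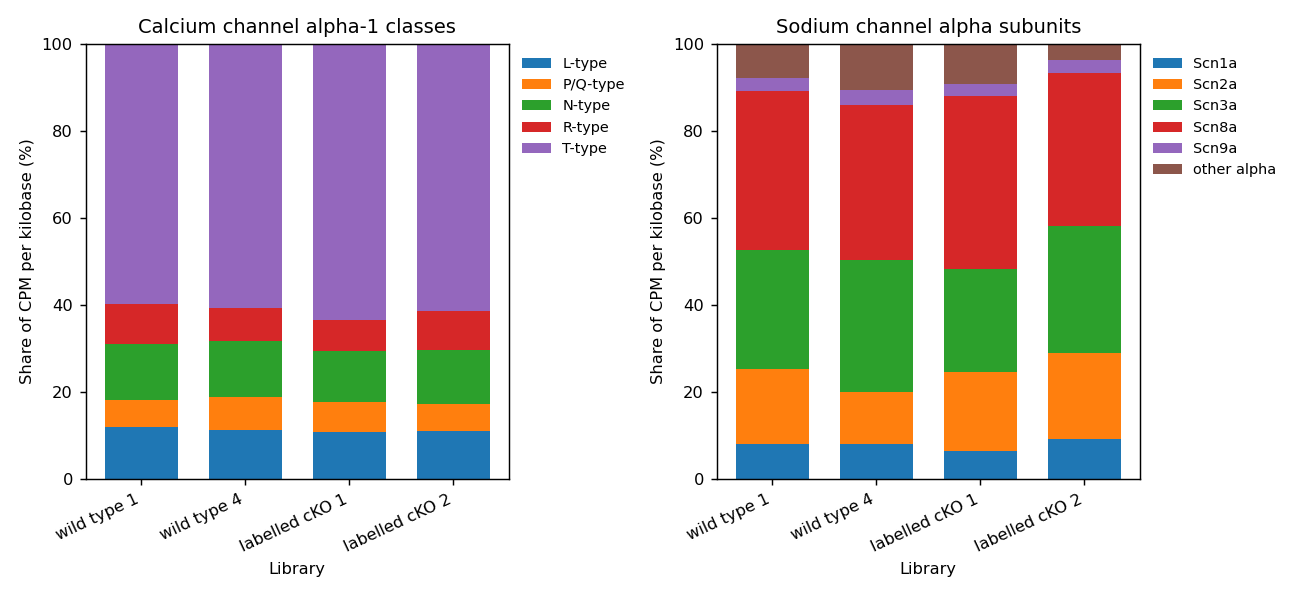
Share of each class in the summed CPM per kilobase of exon of its family, as stacked bars from 0 to 100%, per library; left, calcium channel alpha-1 classes, right, sodium channel alpha subunits, with some pooled as other alpha. T-type genes fill 59.8% to 63.5% of every bar on the left, and the Scn2a segment is smallest, 12.1%, in wild type replicate 4.

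The comparison of the libraries labelled cKO with wild type asked whether channel transcripts differed between the labelled groups, whose H2afv levels are given above. No channel gene passed 5% FDR in edgeR's quasi-likelihood test, nor did any of the 16269 genes tested (0.00%). The one member at an unadjusted p below 0.05 was Cacna1h, which was higher in the libraries labelled cKO. At this p stood 1.67% of all genes tested, 0.676% as higher and 0.996% as lower. DESeq2 also called 0 members and 0 genes at 5% FDR, and Cacna1h was again the one member below 0.05 (background 2.32%). Of the 33 tested members, 27 had a log2 fold change above 0, where 48.1% of all genes did. The members' median was 0.21, against -0.01 over all genes tested. Both libraries labelled cKO lay above both wild types in 11 members (background 16%) and below both in 2 (background 15.7%). Without wild type replicate 4 the median of the members was 0.048, with 18 higher and 15 lower, and 0 members were at an unadjusted p below 0.05 (background 1.48%). Without wild type replicate 1 it was 0.38, with 28 of 34 higher. In that fit, which sets wild type replicate 4 alone against both libraries labelled cKO and assumes that it varies as they do, 10 members were higher at 5% FDR (background 5.34%) and 0 lower (background 5.59%). Among them were Cacna1c, Cacna1e, Cacna1h, Cacnb3, Cacng2, Cacng3, Cacng4, Scn2a and Scn3b, and 17 members were at an unadjusted p below 0.05 (background 25.6%). With the deposited table as a block, 3 members were at an unadjusted p below 0.05 (background 5.65%), namely Cacna1h, Cacng3 and Scn2a.

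Cacna1h read 276 and 211 CPM in the wild types, replicate 1 first, and 332 and 319 CPM under the cKO label, again replicate 1 first, as for all pairs of values below. Its groups did not overlap, and wild type replicate 4 was lowest. The means were 243 ± 46.3 CPM (SD, n = 2) and 326 ± 9.69 CPM (SD, n = 2), or 0.42 as a log2 fold change (SE 0.16, with a 95% confidence interval of 0.03 to 0.81 and an edgeR adjusted p = 0.956). It was 0.24 without wild type replicate 4. The T-type gene Cacna1i had the same order of libraries, with 24.6 and 19.4 CPM without and 29.2 and 27.1 CPM with the cKO label (log2 fold change 0.36, SE 0.19, and 0.20 without wild type replicate 4). Cacna1g, the remaining T-type gene, was at 92.9 and 83.6 CPM in the wild types and 112 and 79.6 CPM under the cKO label, so that its highest and lowest values were both in libraries labelled cKO (log2 fold change 0.12, and 0.05 without wild type replicate 4).

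The 5 tested high-voltage-activated pores had log2 fold changes of 0.20 to 0.24. Cacna1b was at 84.0 and 67.2 CPM without and 88.8 and 87.8 CPM with the cKO label (log2 fold change 0.22, SE 0.15, and 0.077 without wild type replicate 4). Cacna1d was at 39.6 and 30.1 CPM in the wild types and 41.0 and 41.0 CPM under the cKO label, and Cacna1a at 47.3 and 45.8 CPM without and 58.1 and 48.5 CPM with the cKO label. In these 3 genes the groups did not overlap, and wild type replicate 1 lay just below the lower of the libraries labelled cKO. Leaving out wild type replicate 4 moved Cacna1d from 0.24 to 0.058 and Cacna1a from 0.20 to 0.18. Cacna1c was at 102 and 71.9 CPM in the wild types and 104 and 95.3 CPM under the cKO label, and Cacna1e at 156 and 101 CPM without and 136 and 161 CPM with the cKO label. Both overlapped, and both log2 fold changes turned negative without wild type replicate 4, at -0.03 and -0.07.

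Among the subunits that carry these pores to the membrane, Cacnb1 was at 141 and 127 CPM in the wild types and 162 and 155 CPM under the cKO label (log2 fold change 0.24, SE 0.12, and 0.18 without wild type replicate 4). Cacnb3 was at 444 and 327 CPM without and 477 and 478 CPM with the cKO label (log2 fold change 0.31, SE 0.17), which became 0.11 without wild type replicate 4. Both genes had groups that did not overlap. Cacnb2, a beta subunit gene best known from heart, was the one calcium channel member among the 22 tested with a log2 fold change below 0 in the fit of all 4 libraries, where 8 were below 0 without wild type replicate 4. It was at 5.54 and 6.21 CPM in the wild types and 4.87 and 3.50 CPM under the cKO label (log2 fold change -0.49, SE 0.31, and -0.40 without wild type replicate 4). Its groups did not overlap either. Cacnb4 was at 24.9 and 18.3 CPM without and 18.8 and 25.9 CPM with the cKO label, with no separation (log2 fold change 0.05, and -0.15 without wild type replicate 4).

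All 7 tested Cacng genes had log2 fold changes above 0, with a median of 0.38, and 6 of the 7 were lowest in wild type replicate 4. Without that library 4 of the 7 were above 0. Cacng8, the TARP best known from hippocampus, was at 27.5 and 25.8 CPM in the wild types and 38.2 and 32.0 CPM under the cKO label (log2 fold change 0.40, SE 0.17, 95% confidence interval -0.02 to 0.81). Cacng7 was at 240.0 and 254 CPM without and 279 and 287 CPM with the cKO label (log2 fold change 0.20, SE 0.12). For these genes the groups did not overlap and leaving out wild type replicate 4 left the log2 fold change at 0.36 and 0.24. Cacng4 was at 351 and 276 CPM in the wild types and 371 and 369.7 CPM under the cKO label, likewise without overlap, and its log2 fold change of 0.24 became 0.08. Cacng2, encoding stargazin, was at 54.6 and 26.7 CPM without and 50.7 and 53.4 CPM with the cKO label. Wild type replicate 4 was far below the other 3 libraries, which lay within 50.7 to 54.6 CPM, and its log2 fold change of 0.36 became -0.06 without it. Cacng3 was at 16.8 and 8.81 CPM without and 15.6 and 21.6 CPM with the cKO label, and Cacng5 at 11.8 and 6.21 CPM in the wild types and 11.8 and 11.6 CPM under the cKO label, with the same library lowest. Their log2 fold changes of 0.53 and 0.38 became 0.15 and -0.0095 without it. Cacng1 was at 0.650 to 2.07 CPM and overlapped (0.45, and -0.11 without wild type replicate 4).

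Sodium channel alpha subunits were divided, with 3 of 8 above 0 and a median log2 fold change of -0.04, and 1 of 8 was above 0 without wild type replicate 4. Scn2a was at 41.7 and 22.4 CPM without and 37.7 and 48.6 CPM with the cKO label (log2 fold change 0.43, SE 0.31), which became 0.06 without wild type replicate 4. Scn3a was at 64.9 and 54.9 CPM in the wild types and 48.0 and 70.1 CPM under the cKO label (log2 fold change -0.02, SE 0.21), and Scn8a at 110.3 and 82.0 CPM without and 102 and 107 CPM with the cKO label (0.12, SE 0.17). The same values were -0.13 and -0.07 without wild type replicate 4. These 3 alpha subunits overlapped between the groups. Scn10a had 41 and 20 reads without and 23 and 12 reads with the cKO label, and Scn11a had 13 and 11 without and 10 and 7 with it. Scn11a did not overlap, but rests on at most 13 reads per library. Scn9a, another gene of sensory neurons, stayed within 5.98 to 6.98 CPM. Peripheral sensory neuron markers, all 6 listed, summed to 32.2 and 55.3 CPM in the wild types and 40.9 and 18.7 CPM under the cKO label. They were lowest in cKO replicate 2, as were Scn10a and Scn11a, and their part in these values was not tested.

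Of the sodium channel beta subunits, Scn3b was at 158 and 112 CPM without and 166 and 164 CPM with the cKO label (log2 fold change 0.29, SE 0.18), without overlap, and at 0.07 without wild type replicate 4. Scn2b was at 13.7 and 12.5 CPM without and 15.2 and 13.1 CPM with the cKO label and overlapped (log2 fold change 0.11, and 0.048 without wild type replicate 4).

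**Figure D3:**
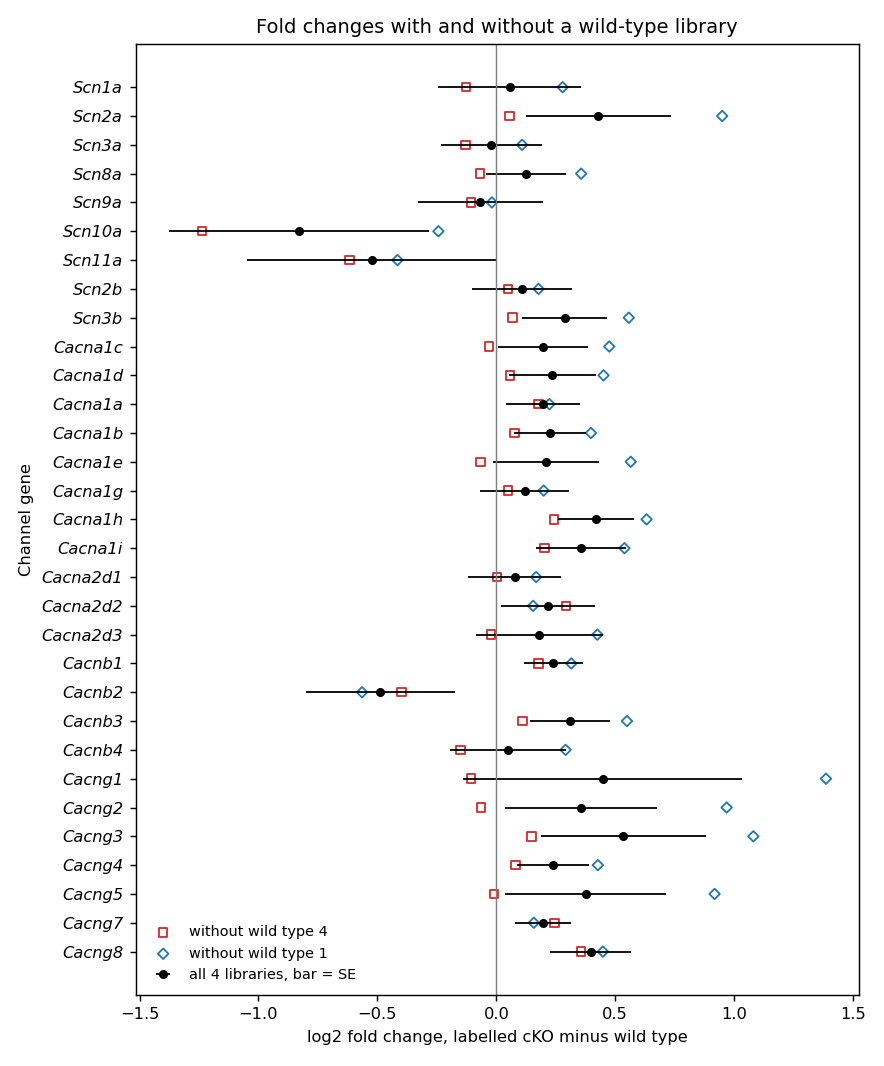
Log2 fold change of 31 of the 33 tested members, labelled cKO minus wild type, with its SE as a bar (black circles, all 4 libraries), and its value without wild type replicate 4 (red squares) or without wild type replicate 1 (blue diamonds). Most squares lie nearer to 0 than the circles, as for Scn2a (0.43 and 0.06), while Cacng7 and Cacng8 hardly move (0.20 and 0.24, 0.40 and 0.36).

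Wild type replicate 4 was the lowest of the 4 libraries in 22 of 33 members, against 36.3% of all genes tested, and the highest in 2, against 37.6%. Relative to each gene's mean on the log2(CPM + 0.5) scale, the members' median was -0.28 in wild type replicate 4 and 0.12, 0.15 and 0.12 in wild type replicate 1, cKO replicate 1 and cKO replicate 2, where that of all genes tested was at most 0.01. Scn2a, Cacng2, Cacng3 and Cacng5 were all well below their level in the other 3 libraries. On the same scale 14 members were more than 0.4 below wild type replicate 1 (background 18.1%), and 0 were more than 0.4 above it (background 16.6%). The postmitotic neuron markers, all 12 of them listed, moved alongside. Their median deviations were -0.34 in wild type replicate 4 and 0.10, 0.10 and 0.12 elsewhere in the same order. Radial glia, intermediate progenitor and cell cycle markers went the other way in that library, with medians of 0.35, 0.57 and 0.81. Not every gene went with its list. The radial glia markers Hopx, Fabp7 and Slc1a3 were lowest in wild type replicate 4, and Hes5 was not raised there. The neuron marker Elavl4 was highest there, at 147 CPM against 79.5 to 112 CPM elsewhere. Dcx and Map2, at 901 and 726 CPM there, were lowest in cKO replicate 1 instead, at 856 and 628 CPM. The part of cell makeup in the channel values was not tested, and in bulk RNA fewer neurons and less channel RNA per neuron cannot be told apart. Against wild type replicate 1 alone, cKO replicate 1 was higher in 19 of 33 members (background 49.5%) and cKO replicate 2 in 18 (background 49.9%).

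**Figure D4:**
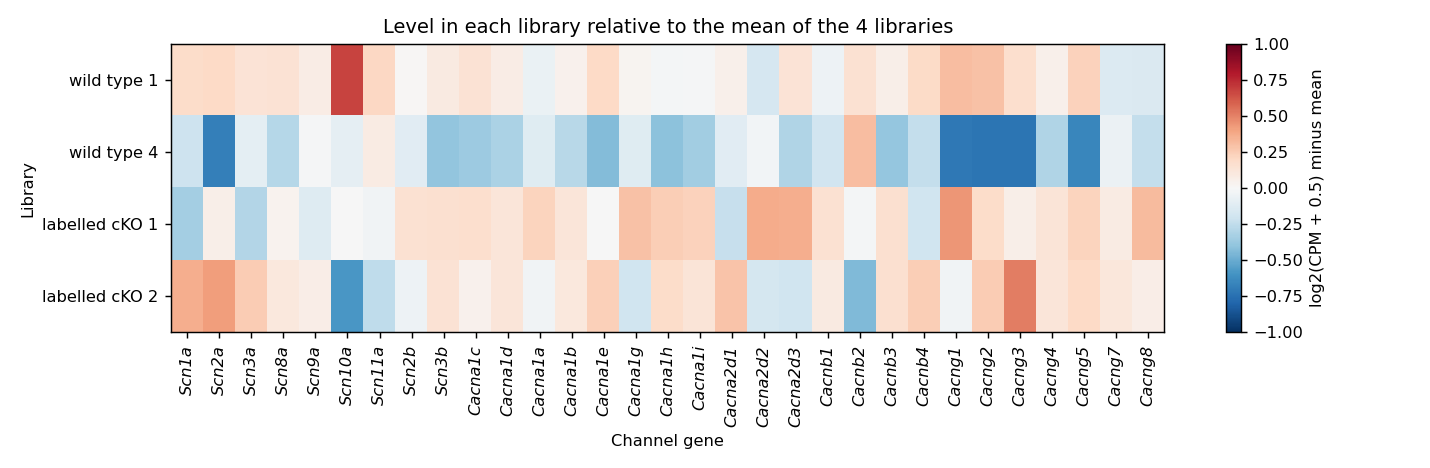
Log2(CPM + 0.5) of 31 of the 33 tested members in each library minus its mean over the 4 libraries, as colour from blue (lower) to red (higher). The row of wild type replicate 4 is mostly blue, with 22 of 33 members lowest there, and the rows labelled cKO have opposite colours for Scn1a, Scn3a, Cacna2d1 and Cacna2d2.

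The libraries labelled cKO differed from each other in a set of members. By more than 0.4 on the log2(CPM + 0.5) scale, a size chosen after the values were seen, 5 members were lower in cKO replicate 1 than in cKO replicate 2 (background 8.33%) and 7 were higher (background 10.9%). The lower ones were Scn1a (-0.70), Scn3a (-0.54), Cacna2d1 (-0.51), Cacng3 (-0.46) and Cacnb4 (-0.45). Among the higher ones were Scn10a (0.57), Cacna2d3 (0.57), Cacna2d2 (0.54), Cacna1g (0.49), Cacng1 (0.48) and Cacnb2 (0.42). Scn1a was at 17.2 and 12.9 CPM without and 11.8 and 19.5 CPM with the cKO label, so that the libraries labelled cKO lay outside the wild types on opposite sides. Scn1a, Scn3a and Cacna2d1 were below both wild types in cKO replicate 1 and above both in cKO replicate 2 (background 5.14%), and Cacna1g and Cacna2d2 the reverse (background 5.92%). Cacna2d1 had 80.7 and 71.9 CPM in the wild types and 66.3 and 94.9 CPM under the cKO label. Its paralog Cacna2d2, which performs the same trafficking role, ran the other way, with 82.3 and 90.4 CPM in the wild types and 119 and 81.8 CPM under the cKO label. Cacna2d3 was at 22.8 and 16.7 CPM in the wild types and 26.8 and 17.97 CPM under the cKO label. The share of Cacna2d1 in alpha-2-delta CPM per kilobase was accordingly 22.8% in cKO replicate 1 and 38.2% in cKO replicate 2, with 33.3% and 30.3% in wild type.

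The GC content of the transcript moved with this difference. Over the 33 tested members, which share these libraries, the difference between cKO replicates 1 and 2 correlated with the GC content of the longest protein-coding transcript at Pearson r = 0.54 and Spearman rho = 0.50, and over 13832 protein-coding genes tested at 0.27 and 0.31. The difference between wild type replicates 4 and 1 also went with GC content over the 13832 genes, at Pearson r = -0.20 and Spearman rho = -0.24. Over the members those values were 0.01 and 0.05. All are correlations across genes, which are not independent replicates. Of the 16 members with the lowest GC content, 7 were higher in cKO replicate 1, and of the 16 with the highest, 13 were. Scn3a, Scn1a, Cacna2d1 and Cacnb4 had GC contents of 42.1%, 43.3%, 40.7% and 40.5%, and Cacna2d2 and Cacna1g of 55.8% and 58.1%. Against this direction, Cacng3, lower in cKO replicate 1, was at 54.6%, and Cacna2d3 and Cacnb2, higher there, were at 49.1% and 46.3%. The part of GC content in these values was not tested. Interneuron markers, all 11 listed, also differed between these libraries, at 1342 and 836 CPM summed, where the wild types had 1025 and 1532 CPM. Choroid plexus markers, all 8 listed, summed to 508 and 56.3 CPM under the cKO label, where the wild types had 34.7 and 11.6 CPM. Ttr alone gave 466 and 48.3 CPM under the cKO label, and 26.7 and 0.473 CPM in the wild types. Otx2 was highest in wild type replicate 4 (8.10 CPM) and lowest in cKO replicate 2 (1.11 CPM). Cortical markers summed to 2898 and 4210 CPM under the cKO label. The part of these markers in the channel values was not tested.

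**Figure D5:**
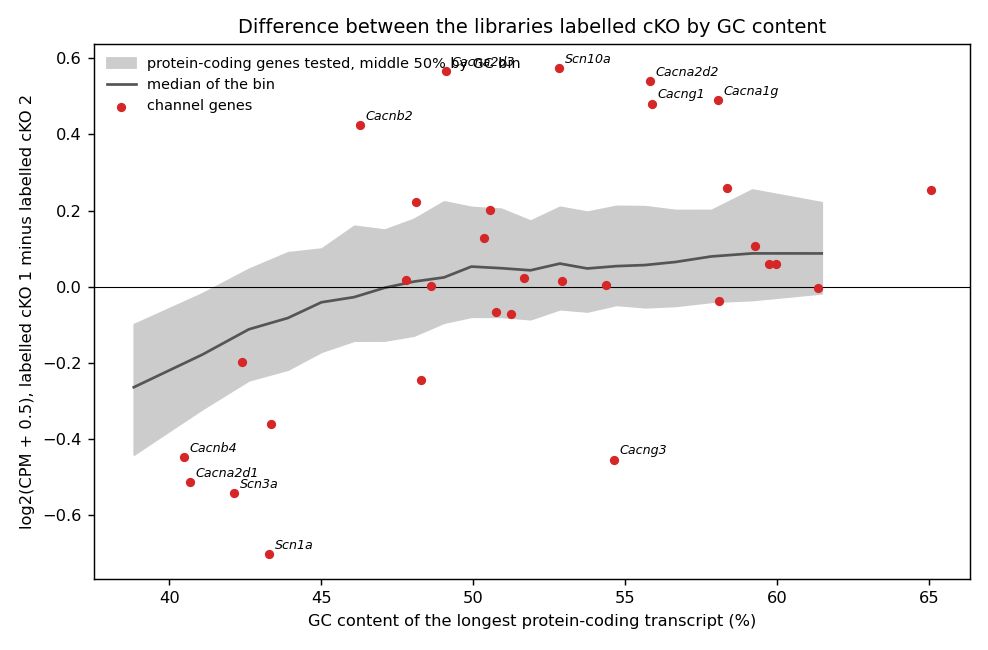
Difference between cKO replicates 1 and 2 on the log2(CPM + 0.5) scale against the GC content (%) of the longest protein-coding transcript; red points are 31 of the 33 tested members, the grey line and band the median and middle 50% of protein-coding genes tested in 20 bins of GC content. Named members differ by more than 0.4, and those with the lowest GC content, such as Cacnb4 and Cacna2d1, lie below 0.

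Ratios of reads within a library, per kilobase of exon, were compared for 3 pairs. Scn2a over Scn3a, which in rodent brain rises as cortical neurons mature, was 0.629 and 0.399 in wild type replicates 1 and 4 and 0.770 and 0.678 in cKO replicates 1 and 2. The groups did not overlap, with a difference of 0.53 in mean log2 ratio (exact permutation test, two-sided p = 0.333, the smallest that 2 against 2 libraries can give). Without wild type replicate 4 the difference was 0.20. The 2 genes that form the ratio moved differently, since Scn2a was lowest in wild type replicate 4 and Scn3a in cKO replicate 1. Cacna1e over Cacna1g was 0.676 and 0.484 in the wild types and 0.488 and 0.814 under the cKO label, and Cacnb3 over Cacnb4 was 39.9 and 39.9 against 56.6 and 41.3.

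Some members that lie side by side in the genome differed widely in level, whereas Scn10a and Scn11a on chromosome 9 were both low (0.174 and 0.0998 CPM per kilobase). Positions are those of the deposited tables, which matched GRCm38 for 37 of 38 members. On chromosome 2, Scn3a (65457118 to 65567627, minus strand), Scn2a (65620771 to 65767447, plus strand), Scn1a (66270778 to 66440840, minus strand) and Scn9a (66480080 to 66634962, minus strand) lie within 1178 kilobases and ranged from 0.518 to 4.77 CPM per kilobase. Here Scn2a was the only one lowest in wild type replicate 4, the other genes being lowest in cKO replicate 1. On chromosome 7, Cacng7 (3332955 to 3368221) and Cacng8 (3390683 to 3415648), both on the plus strand, were at 109 and 13.2 CPM per kilobase, and their neighbour Cacng6 (3424195 to 3435667) was listed in 1 table only, with 3 reads in wild type replicate 1 and 5 in cKO replicate 2. On chromosome 11, Cacng1, Cacng4 and Cacng5 lie within 212 kilobases and spanned 1.18 to 95.7 CPM per kilobase.

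Members left untested were near the limit of detection. Cacna1f had 7 to 10 reads per library, Cacna1s 4 to 7, Cacna2d4 2 to 5 and Scn4b 2 to 5. Of the 8 listed striated muscle markers, which would accompany Cacna1s and Cacng1 in muscle, the summed level was 3.66 to 6.21 CPM over the 4 libraries.

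The proteins that anchor and steer these channels, and the signals calcium entry feeds, were read from 3 lists. Of 27 tested channel partners, such as ankyrins, spectrins and release-site scaffolds, 18 had log2 fold changes above 0 (background 48.1%) and 0 passed 5% FDR, with a median of 0.04. Leaving out wild type replicate 4 left 16 above 0. The 4 with the smallest p were Gem, an inhibitor of calcium channels (-0.84, SE 0.38), Sptbn4, a spectrin of the axon initial segment (0.59, SE 0.27), the scaffold gene Rimbp2 (0.55, SE 0.29) and Stac2 (0.56, SE 0.32). In the fit without wild type replicate 4 these were -0.53, 0.25, 0.17 and 0.15. Sptbn4 was at 65.0 and 37.1 CPM without and 83.4 and 70.1 CPM with the cKO label. Of 42 calcium signalling genes 29 were above 0 with a median of 0.19, 26 with a median of 0.04 without wild type replicate 4, and 0 passed 5% FDR. They were led by Crtc1, a CREB coactivator, at 227 and 181 CPM in the wild types and 269 and 259 CPM under the cKO label (log2 fold change 0.37, SE 0.15). Nfatc4, a transcription factor activated by calcineurin, had a log2 fold change of -0.38, the calcium release channel gene Itpr1 0.60 and the kinase gene Camk1g 0.31. With wild type replicate 4 left out, Crtc1 was at 0.22, Nfatc4 at -0.16, Itpr1 at 0.28 and Camk1g at 0.16. All 10 AMPA receptor genes and partners were above 0 with a median of 0.27 in the fit of all 4 libraries, and 0 passed 5% FDR. Without wild type replicate 4, 6 of the 10 were above 0 with a median of 0.06, and the 4 receptor subunit genes Gria1 to Gria4 were below 0. Cnih2, which like the TARPs binds AMPA receptors, was at 301 and 245 CPM without and 358 and 348 CPM with the cKO label (log2 fold change 0.37, SE 0.14), and 0.24 without wild type replicate 4. Shisa9, Shisa7 and Shisa6, also auxiliary to AMPA receptors, had log2 fold changes of 0.53, 0.37 and 0.27, which became 0.23, 0.09 and 0.24. The summed levels of these 3 lists were lowest in wild type replicate 4.

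The authors' deposited tables each set 1 library against 1. The authors' p-values therefore cannot take in the spread between libraries of the same group, unlike those of edgeR. With wild type replicate 4 as the reference for cKO replicate 1, the authors' deposited table had 23 of 37 members higher at an adjusted p below 0.05 (background 20.0%) and 2, Scn3a and Cacna2d1, lower (background 25.2%). There, 2 members were marked significant as higher in the authors' deposited table (background 4.51%), among them Cacng1, at a log2 fold change of 1.64 on 37 and 11 reads, and 0 members as lower (background 4.21%). With wild type replicate 1 as the reference for cKO replicate 2, the authors' deposited table had 5 of 38 members higher (background 5.04%) and 6 lower (background 8.26%) at an adjusted p below 0.05. Scn10a was marked significant as lower there in the authors' deposited table (background 1.16%), at -1.79 on 12 and 41 reads, and 0 members as higher (background 0.464%). Cacng1 had a log2 fold change of -0.49 in that second one of the authors' deposited tables, and Scn10a 0.09 in the first. No member was marked significant in both.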

How the data were processed

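Alignment and counting tools listed by the submitters' processing notes are TopHat2 2.0.12, Bowtie2 2.2.3 and HTSeq 0.6.0, with mm9 as the build, although gene positions in the tables matched GRCm38. The authors deposited raw read counts per gene in 2 tables, each pairing 1 cKO with 1 wild-type library. Beside them the authors deposited CPM values, in which 0.5 reads replaced a count of 0. The fold change is the authors' ratio of the CPM of both libraries in a table. Its log2 value was deposited by the authors as well. The authors deposited a p-value and an adjusted one from a test that the file headers do not name. Columns were matched to samples by title, and 1 empty line in each table was skipped.

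Counts of the 19844 genes in both tables went into edgeR 4.0.16 (R 4.3.3; quasi-likelihood test, TMM scaling, genes kept by filterByExpr at a minimum count of 10). P-values were two-sided and adjusted by Benjamini-Hochberg over 16269 genes, and the biological coefficient of variation was 0.194. CPM in the text was TMM-scaled from the counts. Exon lengths and transcript GC content came from GENCODE M21. The code was tested on simulated data. Alternatives were DESeq2 1.42.0, RLE size factors, other filters, the deposited table as a block, genes in either table, and leaving out each library. No source used here says whether strand was used in counting. Exons of a neighbour on the opposite strand cover 16% of those of Cacnb4 and 20.0% of those of Cacna1s, and a single neighbour covers at most 5.86% for other members, so their reads cannot be told apart. Members, lists and tests were chosen with earlier results of these data known. By rule, members averaging at least 5 CPM were named with values, plus up to 4 others, and up to 4 genes of each pathway list, by smallest p; the remaining members' counts are given as well. Values of some members are not reported here.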

Additional observations from a re-analysis of the deposited data

How the results depend on the processing

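The count of genes past 5% FDR was 0 with all 4 libraries and 0 to 1849 when each library was left out in turn, the highest without wild type replicate 1. For channel members it was 0 and 0 to 10. The count of members at an unadjusted p below 0.05 was 1, 0 to 17 with each library left out, and 3 with the deposited table as a block. The members' median log2 fold change was 0.048 to 0.38 with each library left out. The differences in log2 ratio ran from 0.20 to 0.86 for Scn2a over Scn3a, from -0.23 to 0.51 for Cacna1e over Cacna1g and from 0.049 to 0.50 for Cacnb3 over Cacnb4, and did not depend on length.

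When each library was left out, log2 fold changes changed sign for members that include Cacna1c (-0.0308 to 0.47), Cacna1e (-0.066 to 0.57), Cacna1g (-0.15 to 0.34), Cacna2d1 (-0.20 to 0.32), Cacna2d2 (-0.0776 to 0.46), Cacna2d3 (-0.14 to 0.44), Cacnb4 (-0.20 to 0.29), Cacng1 (-0.11 to 1.39), Cacng2 (-0.0643 to 0.97), Cacng5 (-0.00949 to 0.92), Scn1a (-0.35 to 0.38), Scn3a (-0.32 to 0.23), Scn8a (-0.0682 to 0.36) and Scn9a (-0.18 to 0.0367). Of these, 9 changed sign without wild type replicate 4. The cause was not tested. Under DESeq2, RLE size factors, no filter, genes in either table and the table block, all 33 members kept direction and stayed uncalled, as did the 32 that passed a mean CPM of at least 1. No paired analysis was possible because the groups share only replicate number 1; the block by deposited table follows how libraries were tabulated. With 2 libraries in each group, no exact test of a single value can go below 0.333.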
